A study of Homo sapiens with 4 samples.

Results

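A group of 10 genes that set or mark stages of B cell development was followed in 2 histone H3 acetylation profiles of a plasma cell tumour line. They were the transcription factor genes PAX5, EBF1, BACH2, BCL6, SPIB, TCF3 and TCF4, the inhibitor gene ID3, the kinase gene BLK and the B cell receptor chain gene CD79B. Their peaks are the rows of 2 deposited peak lists whose gene symbol is one of these 10 names, which gave 12 peaks: 8 of the 9780 in the list from cells overexpressing AIMP1 and 4 of the 4828 in the wild-type list. The cells were H929, an established human multiple myeloma line, with AIMP1, a scaffold subunit of the multi-tRNA synthetase complex, either overexpressed or at its wild-type level. Chromatin fixed in 1% formaldehyde for 10 minutes was precipitated with an antibody to acetylated H3 and sequenced, 1 library per group, and the 2 input libraries of the series were not analysed here. How AIMP1 was introduced, whether the overexpressing cells were 1 clone and whether the wild-type cells carried a control vector are not given in the labels.

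In B lymphocytes, E proteins such as those made from TCF3 and TCF4 bind E-box sequences and, with EBF1 and PAX5, switch on and hold the B cell programme, while ID proteins pair with E proteins and keep them off DNA. BCL6 and BACH2 are repressors that hold germinal centre and activated B cells back from becoming plasma cells, partly by repressing PRDM1. Plasma cells in turn shut down PAX5, BCL6 and much of the receptor machinery, and acetylated H3 marks active promoters and enhancers.

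The 2 lists differed at nearly every level, and this touches each result below. The median peak had a fold enrichment of 7.34 and a width of 1621 bp in the overexpression list, and 4.47 and 828.5 bp in the wild-type list. Promoter peaks made up 84.9% of the overexpression list and 36.0% of the wild-type list. Fold enrichment and p are the authors' own values for each peak, over a background the headers do not describe, so a fold orders the peaks of its own list, and folds of the 2 lists given side by side do not measure a change. With no replicate there is no test across samples, and a gene without a peak had none at the authors' threshold, which is no proof that the mark was missing. Read depth is unknown for both libraries, and its part in the differences was not tested. The plasma cell label held in the markers of the overexpression list: 8 of 10 plasma cell genes carried a promoter peak there. In the wild-type list 1 did, and 6 carried a peak of any class. None of 8 T cell and 7 monocyte genes had a promoter peak in either list, and CD3E, with 2 wild-type peaks outside promoters, was the only one with any peak. The background shares were 33.9% (overexpression) and 7.4% (wild type) of protein-coding genes at promoters, and 36.1% and 14.5% for any class. With a share of only 7.4%, the wild-type promoter counts cannot tell these cell types apart. For peaks of any class in wild type, the 6 of 10 plasma cell genes stood above the share, and no test was made. Such a peak counts for the gene the authors annotated it to, and need not lie inside that gene.

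Of the 10 genes, 7 had a peak in at least 1 list, and PAX5, SPIB and CD79B had none. With AIMP1 overexpressed, 4 carried a promoter peak (TCF3, TCF4, BCL6 and BACH2), where the authors' promoter class covers 3 kb around a transcription start site (TSS), and ID3 had a peak outside promoters. Among all 19974 protein-coding genes the share with a promoter peak in that list was 33.9%, and with a peak of any class 36.1%, so 4 and 5 of 10 are near the background. In wild-type cells 2 of the 10 carried one (TCF3 and BLK), against 7.4% of protein-coding genes, and EBF1 had a distal one, which made 3 with any peak against 14.5%. Split by list, promoter peaks of BACH2, BCL6 and TCF4 were listed with overexpression alone (as for 28.5% of protein-coding genes), that of BLK in wild type alone (2.01%) and those of TCF3 in both (5.39%). Counts this small do not set the genes apart from the rest.

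**Figure D1:**
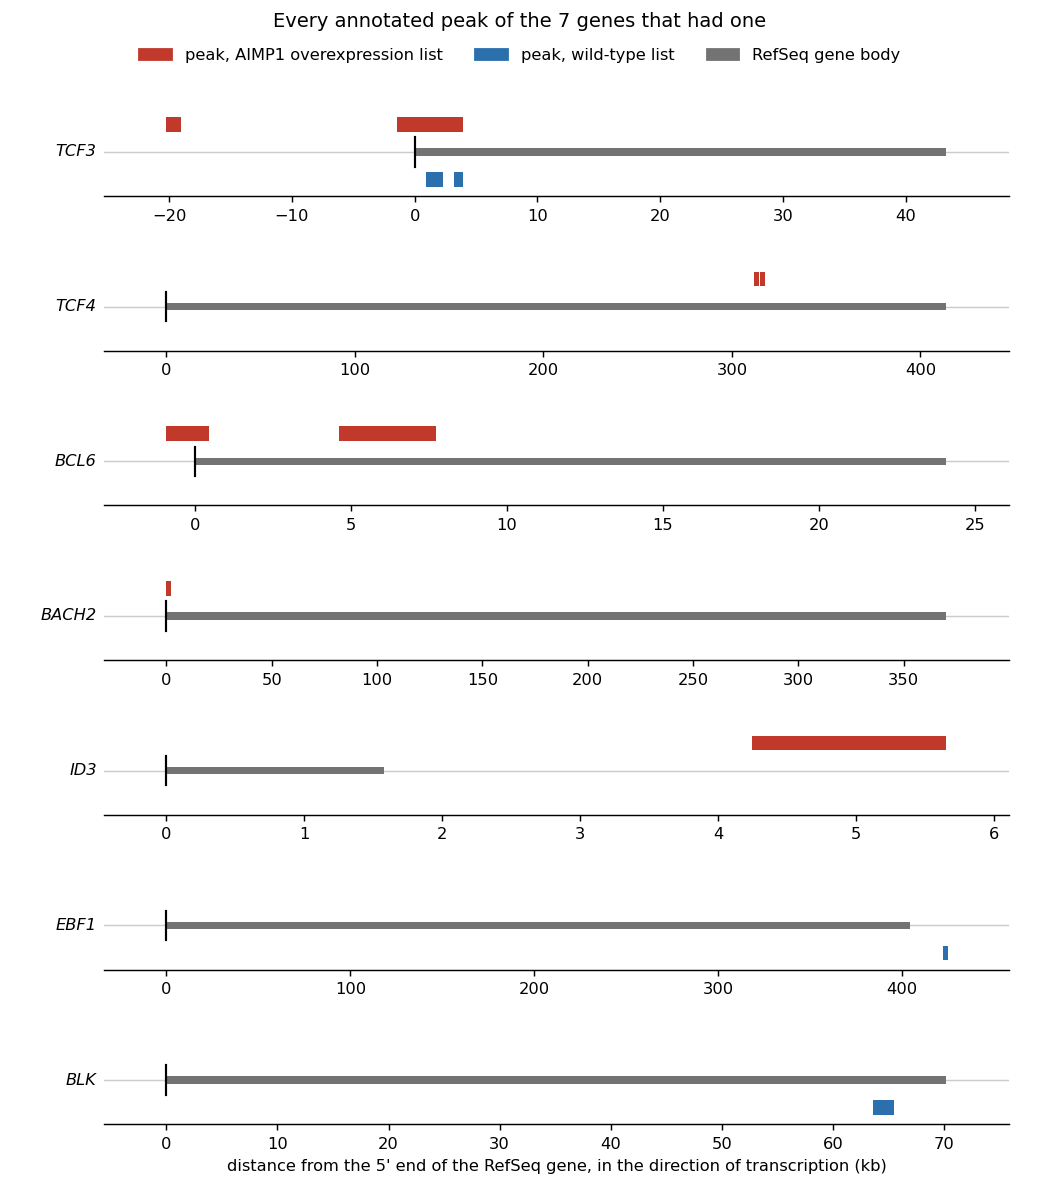
Peaks of the 7 genes with an annotated peak, as distance in kb from the 5′ end of the RefSeq gene in the direction of transcription; each gene has its own scale, the overexpression list is above the grey gene body and the wild-type list below it, and the narrowest peaks are drawn slightly wider than they are. Peaks of the 2 lists lie over each other only at TCF3.

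By position, some promoter peaks of these genes lay away from the gene's start, and those of TCF4 and BLK lay far from it. The transcript named in the authors' annotation can start inside a gene, and a peak there also counts as a promoter peak. Of the 6 overexpression promoter peaks of these genes, 3 lay within 3 kb of the 5′ end of the whole gene in RefSeq, against 85.6% of all overexpression promoter peaks. Of the 3 wild-type ones it was 1, against 70.5%. A TCF3 wild-type peak missed this limit at 3.17 kb, and a BCL6 overexpression peak lay at 4.61 kb. These counts, too, are too small to set the genes apart. A narrower measure, the RefSeq promoter window from 250 bases before a start to 50 after it, was given for 8 of the 10 genes, all but BLK and CD79B. An overexpression peak touched such a window of TCF3, BCL6 and BACH2, so 3 of 8 against 41.4% of protein-coding genes with a window. No wild-type peak touched a window of any of the 8, against 5.69%.

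TCF3, which encodes the E proteins E12 and E47, had the strongest peak of the 10 genes and was the one gene with peaks in both lists. The overexpression list held a domain of 5329 bp there (chromosome 19, 1648694 to 1654022; fold 21.48, p 1.26e-67). It had rank 14 by fold and rank 119 by width among 8300 promoter peaks of that list. The domain reached from 1407 bp before the 5′ end of the gene to 3921 bp inside it, and its summit stood 209 bp before the 5′ end. In the wild-type list TCF3 had 2 smaller peaks, both inside the gene and both wholly within that domain. The one nearer the start (1650319 to 1651695, p 0.00075) was enriched 3.19-fold, at percentile 5.28 of folds in its own list. The other (1648705 to 1649445, p 0.000664) was enriched 3.99-fold, at percentile 28.3. Together they covered 39.7% of the overexpression domain, left a gap of 873 bp between them and ended 920 bp short of the gene's 5′ end, so neither reached the place of the overexpression summit. The wild-type peak that lies deepest in the gene began only 11 bp from the inner edge of the overexpression domain. A further overexpression peak annotated to TCF3 (1671654 to 1672837, fold 13.16, p 2.55e-10) lay 19.04 kb before the gene, in the class of distal intergenic peaks. It had rank 20 by fold among the 1480 overexpression peaks outside promoters, and the nearest wild-type peak was the one inside TCF3, 19.96 kb away.

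Across the 10 genes, 1 of 8 overexpression peaks (the TCF3 domain) overlapped a wild-type peak, against 10.9% of all overexpression peaks. Both TCF3 wild-type promoter peaks, 2 of the 4 wild-type peaks of these genes, overlapped an overexpression peak, against 22.2% of all wild-type peaks. The other 9 peaks were well separated from the other list: the nearest neighbour was 19.96 kb away for the distal TCF3 peak, 68.8 kb for ID3, 90.2 kb for BLK, 531 kb for EBF1, and 598 to 7138 kb for BCL6, TCF4 and BACH2.

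TCF4, the E protein gene that is also known for its role in plasmacytoid dendritic cells, had 2 weak overexpression peaks and none in the wild-type list. They had folds of 5.76 (chromosome 18, 55322374 to 55323226, p 0.000169) and 4.82 (55319070 to 55320288, p 0.000392), at percentiles 21.7 and 7.40 of that list. Both lay deep inside this gene of 414 kb, about 313 and 316 kb from its 5′ end. RefSeq gives TCF4 10 promoter windows. The 2 peaks left 2085 bp between them, and 2 of the 10 windows fell into this gap, 283 bp from the one peak and 598 bp from the other. The other 8 windows, nearer the 5′ end, lay 78.4 to 313 kb from any overexpression peak. The nearest wild-type peak was 1002 kb from the gene.

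ID3, the inhibitor of E proteins, had a strong peak that did not lie at its promoter. With overexpression it was enriched 15.2-fold (chromosome 1, 23553848 to 23555256; p 5.41e-16). This was rank 7 by fold among the 1480 peaks outside promoters and percentile 98.0 of the whole list. It began 2.67 kb past the 3′ end of ID3, within the long non-coding RNA gene LOC124903876 and over one end of LOC105376859, and its summit was 4.86 kb from the 5′ end of ID3. The promoter window of ID3 was 4.2 kb from this peak and 74.4 kb from the nearest wild-type peak, at ASAP3. Of the other E protein partners, ID2 had an overexpression promoter peak (fold 5.07, p 3.79e-05, percentile 9.64). TCF12, the remaining E protein gene, had no promoter peak and 2 wild-type peaks inside the gene, the higher in an exon with a fold of 5.18. ID1 and ID4 had no peak in either list.

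BCL6, the repressor of the germinal centre, had 2 overexpression promoter peaks of unlike shape and its nearest wild-type peak was 581 kb away. The one at its start (chromosome 3, 187745027 to 187746382) was 1356 bp wide, enriched 7.51-fold (p 9.57e-06), at percentile 53.7 of folds, and its summit was 137 bp before the 5′ end. It also covered one end of the antisense gene BCL6-AS1, so the 2 genes share it. The other (187737743 to 187740859) lay inside the gene, 4.61 kb from the 5′ end, and was 3117 bp wide. Its fold of 4.13 (p 0.000506) stood at percentile 1.91 of the list, while its width stood at percentile 91.4. It covered the start of a transcript that the authors' annotation places 7.52 kb inside the gene, and ended 992 bp from the second RefSeq promoter window of BCL6.

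BACH2, which represses the plasma cell programme together with small MAF proteins, had 1 peak, in the overexpression list. It was 2197 bp wide (chromosome 6, 90294647 to 90296843), enriched 7.86-fold (p 4.56e-13), at percentile 58.2 of folds and 74.3 of widths. Its outer edge fell on the same base as the 5′ end of the RefSeq gene, so all of it lay within the first 2.2 kb of the gene, with the summit 1189 bp inside. It touched 50 of the 300 bases of the promoter window. The nearest wild-type peak was 6770 kb from the gene. BACH1, the related repressor, had an overexpression promoter peak with a fold of 5.29, and no peak in the wild-type list.

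**Figure D2:**
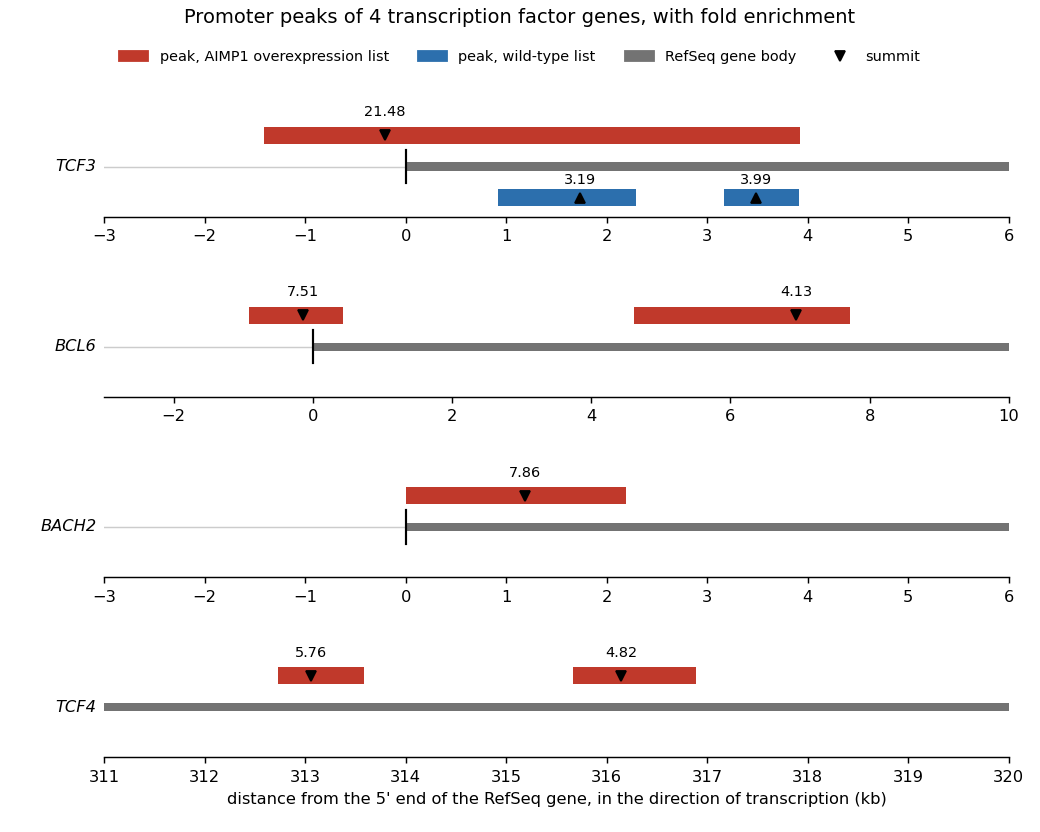
Promoter peaks at TCF3, BCL6, BACH2 and TCF4, as distance in kb from the 5′ end of the RefSeq gene in the direction of transcription, with the summit as a triangle and the authors' fold enrichment as a number. The overexpression domain of TCF3 (fold 21.48) spans the start, both wild-type peaks (3.19 and 3.99) lie inside the gene, and the BACH2 peak begins at the start and runs inward.

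The promoter windows that these peaks touched at TCF3, BCL6 and BACH2, and the window in the gap between the TCF4 peaks that lies nearer the 5′ end, are shown because the peaks above are placed against them. They are RefSeq's, of GRCh38.p14, all on the minus strand and printed 5′ to 3′ in the direction of transcription, with the start at base 251. Capitals mark E-boxes (CANNTG, the letters E proteins bind, the same on both strands) and the letters TTCCTAGAA of BCL6 on either strand.
TCF3, chr19:1652566-1652865: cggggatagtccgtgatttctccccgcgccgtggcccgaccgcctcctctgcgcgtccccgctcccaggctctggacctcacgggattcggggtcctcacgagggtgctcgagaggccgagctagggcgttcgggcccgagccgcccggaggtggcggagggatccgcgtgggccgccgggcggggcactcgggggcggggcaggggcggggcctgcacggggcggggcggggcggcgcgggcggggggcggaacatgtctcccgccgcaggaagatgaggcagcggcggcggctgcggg
BCL6, chr3:187745419-187745718: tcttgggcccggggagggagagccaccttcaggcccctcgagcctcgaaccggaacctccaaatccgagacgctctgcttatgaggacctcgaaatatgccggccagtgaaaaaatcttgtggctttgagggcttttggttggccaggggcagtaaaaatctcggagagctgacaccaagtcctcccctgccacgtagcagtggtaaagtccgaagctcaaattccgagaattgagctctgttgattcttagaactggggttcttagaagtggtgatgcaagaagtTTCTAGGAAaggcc
BACH2, chr6:90296794-90297093: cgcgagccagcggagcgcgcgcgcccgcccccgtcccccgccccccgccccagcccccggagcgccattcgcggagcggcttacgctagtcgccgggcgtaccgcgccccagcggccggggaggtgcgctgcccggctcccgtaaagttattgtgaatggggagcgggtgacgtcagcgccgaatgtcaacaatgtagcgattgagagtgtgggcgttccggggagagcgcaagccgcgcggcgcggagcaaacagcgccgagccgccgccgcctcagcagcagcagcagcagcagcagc
TCF4, chr18:55321792-55322091: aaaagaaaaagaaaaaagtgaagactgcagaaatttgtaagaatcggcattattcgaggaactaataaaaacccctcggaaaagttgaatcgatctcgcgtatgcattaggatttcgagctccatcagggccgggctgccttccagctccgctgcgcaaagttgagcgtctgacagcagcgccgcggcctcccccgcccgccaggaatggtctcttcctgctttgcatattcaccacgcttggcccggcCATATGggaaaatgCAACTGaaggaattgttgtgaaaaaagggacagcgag

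The TCF3 and BACH2 windows were GC-rich and held no E-box, the BCL6 window at the start held a match to the BCL6 letters, and the TCF4 window held 2 E-boxes. GC content was 78.3% for TCF3, 73.3% for BACH2, 53.0% for BCL6 and 50.3% for TCF4. Of all 35116 RefSeq windows, 68.7% held an E-box, and 56.7% of those touched by an overexpression peak did, so a window without one was common. The BCL6 match, which reads TTCTAGGAA in the window as printed and the searched letters on the opposite strand, began at base 37 of the gene, and 0.373% of all windows held these letters on either strand. The core E-box CAGCTG, which an E-box match can also be, was in 17.9% of windows, and among these 8 genes in the window of EBF1 and in the inner one of BCL6. The palindrome CCCNNGGG of EBF1 was in 19.1% of windows, and here in those of SPIB and 1 of TCF4. TGAGTCA, the core that BACH2 binds with MAF partners, was in 4.95% of windows, and here in the inner one of BCL6. GGAA, the core of ETS factors such as SPIB, was in 95.5% of windows and in all windows of these 8 genes but that of SPIB itself. A match of letters is a description of the window only.

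The B cell factor genes PAX5, EBF1 and SPIB had no promoter peak in either list, and neither had ID3 or CD79B. Most protein-coding genes had none either: 28.5% had one with overexpression alone, 2.01% in wild type alone and 5.39% in both. A lack of promoter peaks at 5 of the 10 genes is therefore not particular to them. PAX5, which fixes the B cell identity, had no peak in its 201 kb body. The nearest overexpression peak lay 45.4 kb away, at EBLN3P (fold 6.81), and the nearest wild-type peak 728 kb away. EBF1, the pioneer factor of the B lineage, had 1 wild-type peak (chromosome 5, 158675952 to 158676625, fold 5.14, p 0.000437). That peak lay 19.3 kb past the 3′ end of the gene and about 423 kb from its 5′ end, at percentile 80.6 of folds in its list, and the nearest overexpression peak was 108 kb from the gene, at RNF145. SPIB, an ETS factor of B cells and plasmacytoid dendritic cells, had no annotated peak. An overexpression peak annotated to MYBPC2 (chromosome 19, 50431740 to 50434809, fold 5.74, p 2.37e-13) lay 426 bp past its 3′ end, and the promoter window of SPIB was 12.75 kb from any overexpression peak and 134 kb from any wild-type one. The windows of PAX5 (65.0% GC), SPIB (67.0%) and ID3 (59.7%) were in the range of 58.7 to 67.7% GC, and 39.7% of the 8816 windows in that range were touched by an overexpression peak. The window of EBF1 (57.0%) was in the range of 47.3 to 58.3% GC, where this share was 18.8%. The share was 3.06% at up to 47.0% GC and 52.1% at 68.0% and more. Wild-type peaks touched 0.529 to 6.43% of the windows in these ranges.

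Neither CD79B nor BLK had an overexpression peak. CD79B, the signalling chain that pairs with CD79A beneath surface immunoglobulin, had no peak in either list. The nearest lay 85.6 kb away in the overexpression list, at SMARCD2, and 343 kb away in the wild-type list. BLK, a SRC family kinase of B cells, had 1 wild-type peak, enriched 4.96-fold (p 5.96e-07; chromosome 8, 11557951 to 11559913). Of the 4828 wild-type peaks it had rank 204 by p and rank 215 by width (1963 bp). The authors' class is promoter, by a transcript that starts 65.9 kb inside the gene, and the near edge of the peak lay 63.6 kb from the 5′ end of BLK and over one end of BLK-AS1. The nearest overexpression peak to the gene, at FAM167A, was 26.6 kb away.

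**Figure D3:**
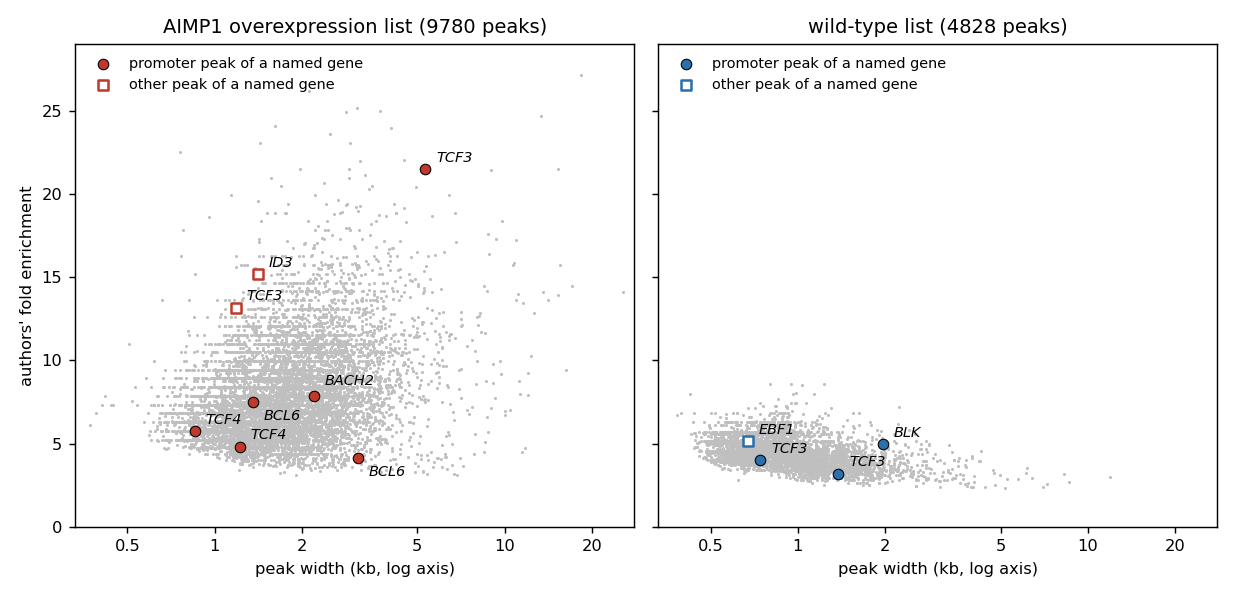
Fold enrichment as given by the authors against peak width in kb (log axis) for every peak of each list (grey), with the 8 and 4 peaks of the named genes in colour, circles at promoters and squares elsewhere. Overexpression folds of these genes run from 4.13 (BCL6) to 21.48 (TCF3), and wild-type folds from 3.19 (TCF3) to 5.14 (EBF1).

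The median folds of these genes lay close to those of all peaks in their lists. The 8 overexpression peaks ran from 4.13 to 21.48 with a median of 7.69, beside 7.34 for the whole list, and 5 of the 8 were above that. The 4 wild-type peaks ran from 3.19 to 5.14 with a median of 4.48, beside 4.47, and 2 were above it. The 3 overexpression peaks of highest fold belonged to TCF3 and ID3.

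Of 48 further B-lineage genes, plasma cell factors such as PRDM1 and XBP1 included, 18 carried a promoter peak with AIMP1 overexpressed and 4 in wild-type cells. The 24 transcription factors and partners had 14 and 2, and the 24 genes of the receptor complex, its signalling and antibody gene recombination had 4 and 2, beside the 33.9% and 7.4% of all protein-coding genes. With overexpression alone, the highest promoter folds were those of PRDM1 (17.29), XBP1 (16.51) and IRF4 (12.12), all factors of plasma cells, and of FOXO1 (11.53), which acts in early and germinal centre B cells. PRDM1, XBP1 and IRF4 are also among the plasma cell markers. All of them had wild-type peaks outside promoters: PRDM1 a distal one (fold 3.66), XBP1 an intronic one (3.79) and IRF4 2 (the higher 3.19). In wild-type cells alone were POU2AF1, the B cell coactivator of octamer factors (fold 5.53, p 0.000526), and MEF2C (4.54, p 1.02e-11, 4270 bp wide). The kinase gene FYN had a promoter peak of fold 8.91 with overexpression and one of 4.00 in wild type. The phospholipase gene PLCG2 had 7.34 and 4.84, and at neither gene did the peaks of the 2 lists overlap. Lack of overlap was the usual case, since 10.9% of all overexpression peaks and 22.2% of all wild-type peaks overlapped the other list. With FYN and PLCG2, the kinase gene LYN (11.28) and the adaptor gene PIK3AP1 (8.33) made up the 4 overexpression genes of the receptor group. CD79A, CD22, CD72, MS4A1, BTK, BLNK, CD40, FCER2, FCRLA, VPREB1, IGLL1, RAG1, RAG2, DNTT and PIK3CD had no peak of any class in either list, like CD79B. They are among the 17 of 24 receptor group genes without a peak. In each list 5 of the 24 had a peak of any class, beside 36.1% (overexpression) and 14.5% (wild type) of all protein-coding genes. LYN, PIK3AP1 and the genes listed here without a peak were named after their values were seen.

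**Figure D4:**
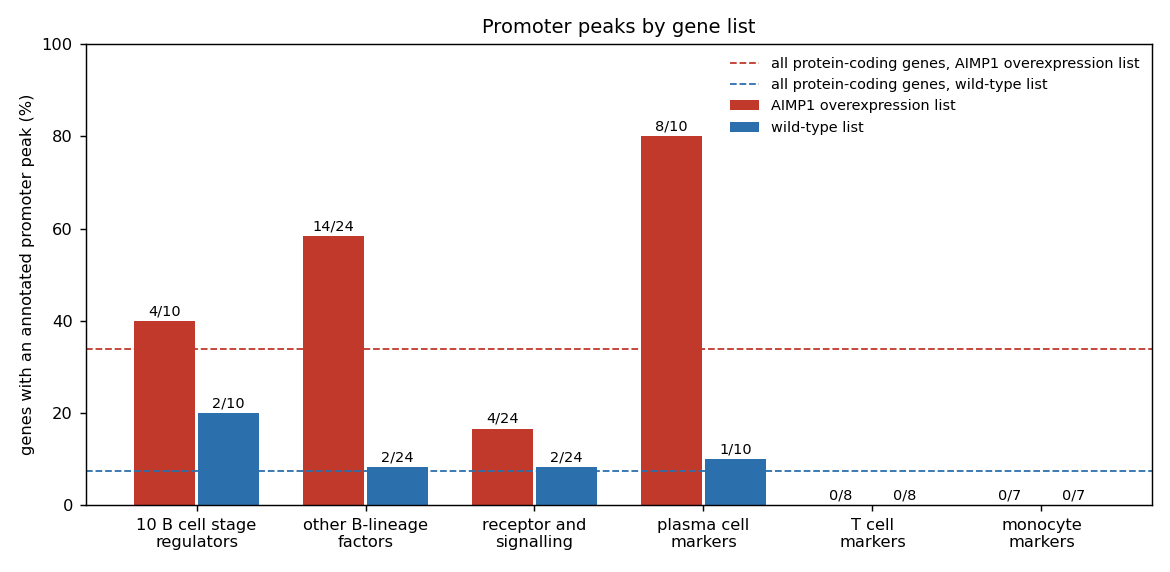
Percent of each gene list with an annotated promoter peak by library, overexpression (red) and wild type (blue), with the number of genes above each bar; dashed lines give the share of all protein-coding genes (33.9% and 7.4%). The other B-lineage factors (14 of 24) and plasma cell markers (8 of 10) stand above the overexpression line and the receptor and signalling genes (4 of 24) below it; no test was made.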

How the data were processed

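Each acetyl-H3 library came with 1 annotated peak list. Per the labels' protocols, library fragments were 100 to 300 bp. Per the submitters' processing notes, cutadapt, Trimmomatic, FastQC and Bowtie2 were used, with no roles or versions; which caller and threshold made the peaks, on which build and with which control is not given in the sources used here. The deposited values per peak are, per the file headers, a fold enrichment (a ratio over a background not described) and a p-value; the largest p is 0.001. Widths and TSS distances are in bases.

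Peaks were matched to genes by symbol and gene ID. Of 8100 and 3497 gene IDs (overexpression and wild type), 8085 and 3489 matched RefSeq's GRCh38.p14, 99.9% and 99.8% of these at the same gene, so RefSeq was used for gene bodies, neighbours and promoter windows. Peaks overlapped if they shared at least 1 bp; this step was checked on planted overlaps. The 5′ end is the outermost RefSeq base. Motifs were searched as letters on both strands. The genes, lists, naming rule and alternatives were chosen with earlier results of these data known. The naming rule took all 10 genes and, from each other list, the 4 of highest fold with promoter peaks under overexpression alone, and up to 4 each for wild type alone and for both; the rest were counted. BACH1, ID1, ID2, ID4, TCF12 and the marker CD3E fall outside this rule and were named after their values were seen. Nothing was tested between groups, since each had 1 library. Python 3.11.15, pandas 2.3.3, numpy 2.4.6 and matplotlib 3.10.9 were used. Some genes of the counted lists are not reported by name here.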

Additional observations from a re-analysis of the deposited data

How the results depend on the processing

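No paired analysis was possible because the groups compared hold a single library apiece, and no replicate could be left out. With peaks of p at most 1e-05, the wild-type list kept 1 of the 10 genes, BLK, at promoters and with any peak, 1 of the further B-lineage genes, and 0 overlaps at TCF3 counted from either list. With only peaks that reach the pooled median fold (6.11), these wild-type counts were 0, 0 and 0, and the overlaps 0; a common threshold removes mostly wild-type peaks, of which 543 and 177 were left. With lists of equal length (4828 peaks, lowest p first), the overexpression list kept 2 of the genes at promoters (TCF3 and BACH2) and 3 with any peak, ID3 being the other. By RefSeq gene bodies and 1 kb around them, the B-lineage genes with a wild-type peak were 9, and the 5 genes with an overexpression peak included SPIB and not ID3. Within 100 kb of the gene, 9 of the 10 genes had an overexpression peak, all but EBF1, and 4 had a wild-type peak. The share of all protein-coding genes with a peak within 100 kb is not given here, so these counts do not set the genes apart. Of 40 alternatives computed, 26 stayed within 1.5 times the count in the report and 14 did not. Unknown depth limits every statement that a peak was not listed.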

Other observations

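Of the 48 further B-lineage genes, those with a peak of any class, promoters included, numbered 20 with AIMP1 overexpressed and 16 in wild type, beside 36.1% and 14.5% of all protein-coding genes. Among the 24 transcription factors and partners these numbers were 15 and 11, and among the 24 receptor and signalling genes 5 and 5. Wild-type peaks outside promoters belonged, for example, to RUNX1 (4 intronic peaks, the highest with a fold of 4.78), ETS1 (3 distal peaks, 4.94), MEF2C (3 intronic peaks besides its 2 promoter peaks), BCL11A (distal, 5.08), IKZF1 (distal, 3.94), IKZF3 (intronic, 4.50) and the complement receptor gene CR2 (intronic, 5.14). SYK, the kinase downstream of CD79B, had distal peaks in both lists, 2 with overexpression (highest fold 6.82, p 0.000378) and 1 in wild type (5.71, p 3.19e-07), which overlapped the higher of them. These genes were picked after their values were seen, and nothing was tested between the libraries.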
